A study of Mus musculus with 12 samples.

Results

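DNA replication in S phase is carried out by a small set of proteins whose genes are widely used to mark dividing cells. The 40 genes described here are listed members of that machinery, and all 40 were found among the 55471 genes of the count table. They were chosen by symbol and not by a rule on their measured values, though earlier results of these data were known. They comprise 12 genes of the MCM helicase and its partners, 4 origin licensing genes, 6 clamp and clamp loader genes and 7 polymerase and primase genes. The other members are 4 nucleotide supply genes, 4 genes of Okazaki fragment processing and single-strand binding, and 3 genes of chromatin at the fork. All 40 passed the filter on low counts, with 641 or more counts in every line.

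The genes were measured by RNA sequencing in Ba/F3, a mouse pro-B cell line that depends on interleukin-3 (IL-3) unless an oncogene replaces that signal. SFPQ-ABL1 lines expressed the tyrosine kinase ABL1 fused to SFPQ and BCR-ABL1 lines the same kinase fused to BCR, both cultured with no IL-3. MSCV lines held only the empty retroviral vector and were kept in 0.5 ng/ml IL-3. There were 4 lines of each of the 3 groups, which the labels call biologically independent, and all were growing exponentially at harvest. The fusion and the absence of IL-3 cannot be told apart in a comparison with MSCV, while SFPQ-ABL1 against BCR-ABL1 carries no difference in IL-3.

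Before S phase, the origin recognition complex with Cdc6 and Cdt1 loads the MCM2-7 ring on DNA, and Cdc45 and the GINS complex turn that ring into the active helicase. Polymerase alpha with primase lays down primers, replication factor C loads the PCNA clamp, and polymerases delta and epsilon extend the strands. Ribonucleotide reductase, thymidylate synthase and thymidine kinase supply deoxynucleotides. Many of these genes are known targets of E2F transcription factors, which the retinoblastoma (RB) family holds in check.

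The promoters are shown because the members share this known class of regulator and because Mcm6, Pola1 and Rrm2 differed between groups. RefSeq promoter windows (build GRCm38.p6) matched 33 of the 40 members by symbol, in 38 windows. The 250 bases before each start were searched on both strands for the E2F-type words TTTCCCGC, TTTCGCGC, TTTGCCGC and TTTGGCGC. They occurred in 9 of 38 member windows (23.68%), against 611 of all 32851 windows of the table (1.86%). The CCAAT box, spelled CCAAT, was in 23 member windows (60.53%), against 33.85% of all windows. The CHR word TTTGAA was in 4 member windows (10.53%), against 15.99% of all windows. With 1 window per gene, a count run before the one over all windows, the E2F-type shares were 24.24% of members and 1.924% of all genes. The members with an E2F-type word were Cdc6, Gins3, Mcm5, Mcm6, Mcm7, Orc1, Pola1, Rfc3 and Uhrf1. The windows below run 5′ to 3′ towards the start, with E2F-type words in capitals; the Mcm6 window holds 3 such words, of which 2 overlap, the Pola1 window 1 and the Rrm2 window 0. Mcm6 is at chr1:128359706-128359955 on the minus strand, Pola1 at chrX:93632156-93632405 on the minus strand and Rrm2 at chr12:24708004-24708253 on the plus strand.
Mcm6: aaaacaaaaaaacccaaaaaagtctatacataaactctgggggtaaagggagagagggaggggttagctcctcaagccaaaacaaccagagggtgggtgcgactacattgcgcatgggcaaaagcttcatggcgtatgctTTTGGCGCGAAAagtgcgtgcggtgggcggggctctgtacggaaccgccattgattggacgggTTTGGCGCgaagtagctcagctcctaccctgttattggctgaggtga
Pola1: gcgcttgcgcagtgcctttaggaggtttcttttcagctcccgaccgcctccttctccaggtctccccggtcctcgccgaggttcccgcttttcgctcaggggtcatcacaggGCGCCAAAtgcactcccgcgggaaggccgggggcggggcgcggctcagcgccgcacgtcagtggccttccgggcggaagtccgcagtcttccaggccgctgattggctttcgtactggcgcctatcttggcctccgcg
Rrm2: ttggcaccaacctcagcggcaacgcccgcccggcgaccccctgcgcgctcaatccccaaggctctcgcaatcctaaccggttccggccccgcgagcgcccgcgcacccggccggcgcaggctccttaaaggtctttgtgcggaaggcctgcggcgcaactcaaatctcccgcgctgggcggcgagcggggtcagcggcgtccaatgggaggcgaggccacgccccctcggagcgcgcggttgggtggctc
Of the 5 members called between BCR-ABL1 and MSCV that have a window, these 3 were picked for printing after the matches were seen; the windows of the other two, Lig1 and Rfc4, held 0 E2F-type words. These matches describe letters in a window; no binding was measured in these lines.

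With BCR-ABL1, 3 members were higher than in MSCV (Rrm2, Pola1 and Rfc4) and 4 were lower (Rfc2, Mcm6, Lig1 and Gins4), by edgeR's quasi-likelihood test at an adjusted p under 0.05. Over all 17197 genes tested in that comparison 15.8% were called higher and 16.3% lower (32.1% in either direction). The lines of both groups did not overlap for 3 members with BCR-ABL1 higher and 4 with BCR-ABL1 lower, which holds for 15.7% and 16.0% of all genes. The 3 were those called higher. The 4 were Rfc2, Mcm6, Gins4 and Gins3, the last not called (adjusted p = 0.111 in edgeR), while the lines of Lig1 overlapped. The median log2 fold change was -3.48e-04 over the members and -0.0081 over all genes. Leaving out BCR-ABL1 line 2 gave 5 higher calls (2315 of all 17404 genes tested). The lower calls numbered 2 without BCR-ABL1 line 2, BCR-ABL1 line 4 or MSCV line 1, 2 or 4. In those fits 2308 to 2599 of all genes were lower.

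With SFPQ-ABL1, 0 members were called higher than in MSCV and 1 was called lower (Rfc2), where 0.814% of all genes were called higher and 0.977% lower (1.79% in either direction). At an unadjusted p under 0.05 there were 13 members, against 3194 of the 17197 genes tested. DESeq2 called 4 members higher (Orc1, Pola1, Pole and Tyms), against 528 of the 16583 genes it gave an adjusted p. Positive log2 fold changes were found for 39 of the 40 members, against 8539 of the 17197 genes tested. The lines of a group differed together across the members (below), so these signs are not separate observations. The median log2 fold change was 0.20 over the members and -0.0019 over all genes. Without SFPQ-ABL1 line 2 the members' median was 0.12. In 10 members every SFPQ-ABL1 line lay above every MSCV line, in a comparison in which 5.0% of all genes did so. In 1 member (Rfc2) every SFPQ-ABL1 line lay below, as in 6.24% of all genes. The Rfc2 call was lost in 10 of 21 alternatives, among them those without SFPQ-ABL1 line 1, 3 or 4, BCR-ABL1 line 3 or any 1 MSCV line.

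Between the fusions, 14 members were higher with SFPQ-ABL1 than with BCR-ABL1 and 1 was lower (Rrm2). In that comparison 13.2% of all genes were called higher and 12.8% lower (26.0% in either direction). The median log2 fold change was 0.19 over the members and 0.0058 over all genes, and 0.08 over the members without SFPQ-ABL1 line 2 and BCR-ABL1 line 4. Of that pair, SFPQ-ABL1 line 2 had the highest mean log2 CPM of the members in its group (6.65). BCR-ABL1 line 4 (6.06) stood just above the lowest of its group, line 2 (6.03). The count of higher members was 7 without SFPQ-ABL1 line 2, where 2278 of all 17459 genes tested were higher. It was 7 without BCR-ABL1 line 2 (1759 of 17404 genes) and 8 without BCR-ABL1 line 4 (1825 of 17478 genes). Without both SFPQ-ABL1 line 2 and BCR-ABL1 line 4 it was 5 (1956 of 17378 genes). Every pair of these comparisons shares a group of lines, so they are set side by side below and not counted as separate support for each other.

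**Figure D1:**
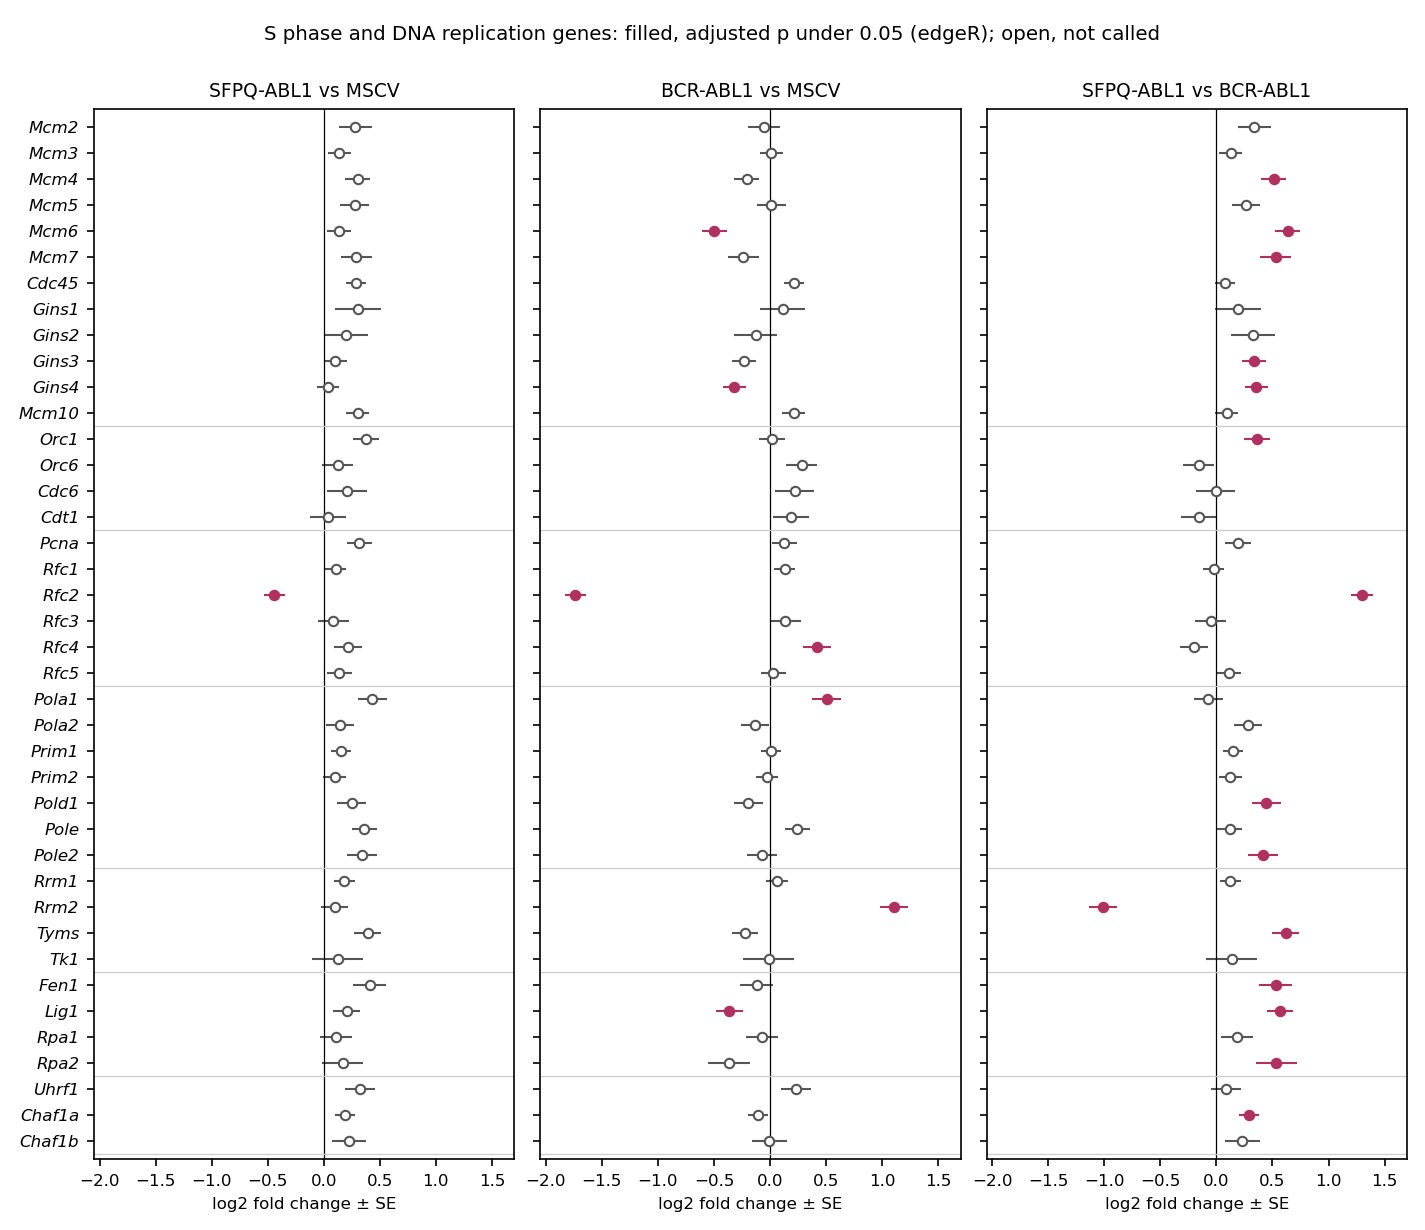
Log2 fold change ± SE of the 40 genes in each comparison, ordered by role (grey lines part the roles); filled points passed an adjusted p of 0.05 in edgeR. Rfc2 and Rrm2 stand farthest from 0 in both comparisons that involve BCR-ABL1. In SFPQ-ABL1 against MSCV 39 of 40 points lie right of 0, as do 8539 of all 17197 genes tested.

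Mcm6, a subunit of the MCM2-7 ring, was the most abundant member per length in SFPQ-ABL1 and MSCV lines and fell with BCR-ABL1. It had 514, 487, 475 and 439.5 CPM (TMM-scaled to library size, so that 1 CPM stood for 61.2 to 82.2 counts) in SFPQ-ABL1 lines 1 to 4, 371, 271, 315 and 276 CPM in BCR-ABL1 lines, and 421, 434, 397 and 489 CPM in MSCV lines. Every BCR-ABL1 line lay below every line of the other groups, while SFPQ-ABL1 and MSCV lines overlapped. Its log2 fold change was -0.50 ± 0.11 (SE, adjusted p = 0.00405 in edgeR) for BCR-ABL1 against MSCV. For SFPQ-ABL1 against BCR-ABL1 it was 0.63 ± 0.11 (adjusted p = 0.00138 in edgeR), and both calls held in all 21 alternatives. Exon by exon the fall was less even: BCR-ABL1 lines lay wholly below MSCV lines in 1 of 17 exons, and the ratio was 1.10, 0.989 and 1.5 in the first 3. With the span of each protein-coding gene cut into 3 equal parts, exons in the part nearest the 5′ end held, of the counts in the 5′ and 3′ parts together, 18.4% to 21.4% in BCR-ABL1 lines and 14.2% to 20.4% in MSCV lines, and their part in this was not tested.

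Mcm4 and Mcm7, further subunits of the ring, were also called between the fusions. Mcm4 had 237, 236, 213 and 192 CPM in SFPQ-ABL1 lines, 189, 138, 154 and 136 CPM in BCR-ABL1 lines and 185, 169, 167 and 192 CPM in MSCV lines. The lowest SFPQ-ABL1 line of Mcm4 stood just above the highest BCR-ABL1 line, with a log2 fold change of 0.51 ± 0.11 (adjusted p = 0.00576 in edgeR). Mcm7 had 287, 355, 261 and 242 CPM in SFPQ-ABL1 lines, 244, 165, 208 and 177 CPM in BCR-ABL1 lines and 246, 231, 215 and 244 CPM in MSCV lines. The fusions' lines of Mcm7 overlapped at a single pair, and its log2 fold change was 0.53 ± 0.14 (adjusted p = 0.0139 in edgeR). Without SFPQ-ABL1 line 2 and BCR-ABL1 line 4 the Mcm7 call was lost (adjusted p = 0.084). Mcm7 shares 64 exonic bases with Cops6 and 321 with Ap4m1, which averaged 124 and 29.4 CPM over all lines. Neither was called between the fusions (adjusted p = 0.904 and 0.337 in edgeR), and their part in the Mcm7 counts was not tested.

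Mcm2, Mcm3 and Mcm5 were called in none of the 3 comparisons. Mcm2 had 237, 249.7, 192 and 183 CPM in SFPQ-ABL1 lines, 198, 133, 199 and 153 CPM in BCR-ABL1 lines and 192, 190.2, 152 and 175 CPM in MSCV lines. Mcm3 had 327, 386, 298 and 295 CPM in SFPQ-ABL1 lines, 314, 279, 318 and 284 CPM in BCR-ABL1 lines and 309.6, 298, 263 and 314 CPM in MSCV lines. Mcm5 had 307, 343, 271 and 241 CPM in SFPQ-ABL1 lines, 271, 197, 267 and 234 CPM in BCR-ABL1 lines and 247, 255, 215 and 243 CPM in MSCV lines. The lines of the groups overlapped for all 3 genes. Against BCR-ABL1, the SFPQ-ABL1 log2 fold change was 0.34 for Mcm2, 0.13 for Mcm3 and 0.26 for Mcm5. Although the 6 proteins form 1 ring, their transcripts were unequal per length. Length here is that of all annotated exons of a gene together (6956 bases for Mcm2, 3589 for Mcm4). In CPM, Mcm2 averaged 171 and Mcm4 154 in BCR-ABL1 lines, though line 2 had less Mcm2 (133 CPM) than Mcm4 (138 CPM). On the scale of CPM per kb of exon, Mcm2 averaged 31.0 ± 4.71 in SFPQ-ABL1, 24.5 ± 4.72 in BCR-ABL1 and 25.5 ± 2.64 in MSCV (SD, n = 4 each). Mcm6 averaged 103 ± 6.58 in SFPQ-ABL1, 66.1 ± 9.84 in BCR-ABL1 and 93.3 ± 8.38 in MSCV (SD, n = 4 each). Mcm3, at 79.6 ± 5.35 CPM per kb in BCR-ABL1 lines, stood above Mcm6 there, where the lines of both genes overlapped.

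**Figure D2:**
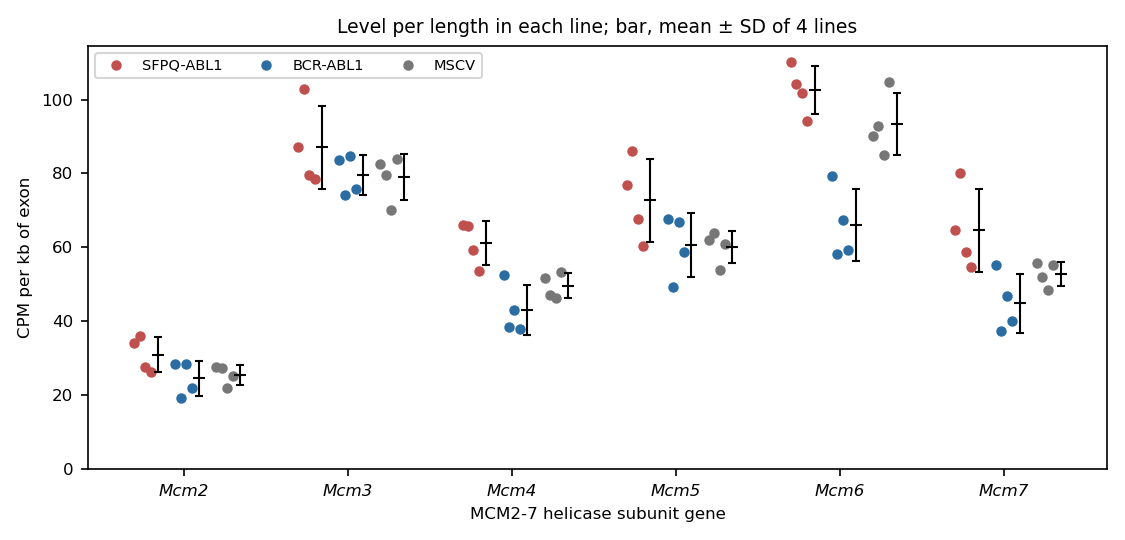
CPM per kb of exon of the MCM2-7 genes in each line, with the mean ± SD of 4 lines per group. Mcm6 averages 103 in SFPQ-ABL1, 66.1 in BCR-ABL1 and 93.3 in MSCV lines, and Mcm2 is the lowest of the 6 in each group on this scale, which divides by the annotated exon length (6956 bases for Mcm2, 3589 for Mcm4).

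Among the partners of the ring, Gins4, a subunit of the GINS complex, had 42.2, 44.2, 39.2 and 36.9 CPM in SFPQ-ABL1 lines, 34.3, 26.6, 34.9 and 31.2 CPM in BCR-ABL1 lines and 39.0, 43.5, 36.7 and 39.2 CPM in MSCV lines. All BCR-ABL1 lines of Gins4 lay below the other lines. Its log2 fold change was -0.32 ± 0.10 (adjusted p = 0.0281 in edgeR) for BCR-ABL1 against MSCV, a call that 7 of 21 alternatives lost, with adjusted p up to 0.249. For SFPQ-ABL1 against BCR-ABL1 it was 0.36 ± 0.10 (adjusted p = 0.0207 in edgeR), lost in 4 of 21 (without SFPQ-ABL1 line 2, without BCR-ABL1 line 2, without SFPQ-ABL1 line 2 and BCR-ABL1 line 4, and in the exon table), with adjusted p up to 0.169. Gins3 was also higher with SFPQ-ABL1 than with BCR-ABL1, by 0.34 ± 0.11 (adjusted p = 0.032 in edgeR), and lost that call in 9 of 21 alternatives. Gins1, Gins2, Cdc45 and Mcm10, the last a factor that helps to activate the helicase, were not called in any comparison. Gins2 shares 2758 of its 4097 exonic bases with Gse1, which averaged 160 CPM over all lines, against 23.0 CPM for Gins2. The part of Gse1 in the Gins2 counts was not tested. Cdc45 had 56.4 to 68.2 CPM in SFPQ-ABL1 lines and 48.2 to 52.3 CPM in MSCV lines, with no overlap (adjusted p = 0.115 in edgeR). Mcm10 had 70.4 to 83.6 CPM in SFPQ-ABL1 lines and 58 to 65.3 CPM in MSCV lines, also with no overlap (adjusted p = 0.145 in edgeR).

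Among the licensing genes only Orc1, the largest subunit of the origin recognition complex, was called. Its level was 18.9 ± 2.86 CPM in SFPQ-ABL1 lines, 14.8 ± 0.548 CPM in BCR-ABL1 lines and 14.6 ± 1.37 CPM in MSCV lines (SD, n = 4 each). It was higher with SFPQ-ABL1 than with BCR-ABL1 by 0.36 ± 0.12 on the log2 scale (adjusted p = 0.037 in edgeR), a call that 9 of 21 alternatives lost. Cdc6, which loads the ring with Cdt1, had the highest adjusted p of the members between the fusions. It had 51.2, 68.7, 46.4 and 47.4 CPM in SFPQ-ABL1 lines, 67.0, 51.1, 57.1 and 39.6 CPM in BCR-ABL1 lines and 54.4, 51.4, 35.7 and 43.1 CPM in MSCV lines, with adjusted p = 0.98 in edgeR for SFPQ-ABL1 against BCR-ABL1. Cdt1 had the highest adjusted p for SFPQ-ABL1 against MSCV (0.931 in edgeR). Its levels were 54.2, 63.9, 55.0 and 54.1 CPM in SFPQ-ABL1 lines, 77.1, 48.0, 76.5 and 50.7 CPM in BCR-ABL1 lines and 64.6, 58.9, 46.5 and 51.5 CPM in MSCV lines. BCR-ABL1 lines 1 and 3 stood above all other lines for Cdt1, and lines 2 and 4 did not. Orc6 was not called, at 56.0 ± 9.44 CPM in SFPQ-ABL1, 62.5 ± 8.29 CPM in BCR-ABL1 and 51.5 ± 7.57 CPM in MSCV (SD, n = 4 each).

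Rfc2, a small subunit of the clamp loader replication factor C, had the lowest adjusted p of the members in every comparison. It had 236, 247, 248 and 238 CPM in SFPQ-ABL1 lines, 114, 90.2, 98 and 91.9 CPM in BCR-ABL1 lines and 331, 367, 297 and 319 CPM in MSCV lines. The groups did not overlap, with MSCV highest, SFPQ-ABL1 between and BCR-ABL1 lowest. BCR-ABL1 lines held 3.34-fold less Rfc2 than MSCV lines (log2 fold change -1.74 ± 0.09, adjusted p = 1.81e-06 in edgeR). SFPQ-ABL1 lines held 1.36-fold less than MSCV lines (-0.44 ± 0.09, adjusted p = 0.0351 in edgeR, up to 0.102 among the alternatives). SFPQ-ABL1 lines held 2.46-fold more than BCR-ABL1 lines (1.30 ± 0.09, adjusted p = 9.83e-06 in edgeR).

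The exon counts gave the same direction along Rfc2. In its principal transcript the mean of BCR-ABL1 lines was below that of MSCV lines in all 11 exons, at ratios of 0.249 to 0.515, and the lines did not overlap in 9 of the 11. SFPQ-ABL1 lines were also below MSCV lines in each exon, at ratios of 0.453 to 0.835, with no overlap in 3. Exon 11, which held the most counts, shares bases with Lat2 on the opposite strand (952 exonic bases in all), and Lat2 itself averaged 21.3 ± 15.6 CPM in SFPQ-ABL1 lines, 18.9 ± 11.2 CPM in BCR-ABL1 lines and 70.5 ± 19.4 CPM in MSCV lines (SD, n = 4 each). Exons 1 to 10 lie outside Lat2, and there the ratio of BCR-ABL1 to MSCV was 0.270 to 0.515. For SFPQ-ABL1 against MSCV, the part of Lat2 in the Rfc2 call was not tested. Other members called between BCR-ABL1 and MSCV were less separate by exon. Pola1 lines of these groups did not overlap in 3 of 37 exons, and Lig1 lines in 1 of 29. For Rfc4 (11 exons) and Gins4 (8 exons) they overlapped in every exon.

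No other loader subunit was called lower. Rfc4 had 46.9, 62.4, 51.3 and 47.3 CPM in SFPQ-ABL1 lines, 63.0, 49.4, 72.9 and 53.8 CPM in BCR-ABL1 lines and 45.0, 45.9, 42.0 and 46.0 CPM in MSCV lines. Every fusion line of Rfc4 lay above every MSCV line. For BCR-ABL1 against MSCV the log2 fold change was 0.42 ± 0.12 (adjusted p = 0.0213 in edgeR), but 0.15 (adjusted p = 0.762) from the exon table, and the call was also lost without BCR-ABL1 line 1 or 3 or MSCV line 3. Rfc4 shares 194 exonic bases with Eif4a2, which averaged 301 CPM over all lines and was not called itself (adjusted p = 0.465 in edgeR); its part in the Rfc4 counts was not tested. Rfc1, Rfc3 and Rfc5 were called in no comparison, with log2 fold changes of 0.03 to 0.14 for BCR-ABL1 against MSCV.

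Pcna, the sliding clamp, was not called. It had 109.6, 117, 104 and 91.8 CPM in SFPQ-ABL1 lines, 103, 77.8, 96.8 and 92.3 CPM in BCR-ABL1 lines and 98.8, 79.4, 73.7 and 86.5 CPM in MSCV lines. The groups overlapped, with log2 fold changes of 0.32 ± 0.11 for SFPQ-ABL1 against MSCV (adjusted p = 0.162 in edgeR) and 0.13 ± 0.11 for BCR-ABL1 against MSCV (adjusted p = 0.427 in edgeR). Part of its reads may be counted elsewhere: the processed pseudogene Pcna-ps2 on chromosome 19 held 176 ± 25.6 CPM in SFPQ-ABL1, 145 ± 14.1 CPM in BCR-ABL1 and 137 ± 22.6 CPM in MSCV lines (SD, n = 4 each). With both summed, Pcna was still not called, with adjusted p = 0.149 in edgeR for SFPQ-ABL1 over MSCV, 0.58 for BCR-ABL1 over MSCV and 0.142 for SFPQ-ABL1 over BCR-ABL1. Its level is therefore uncertain.

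**Figure D3:**
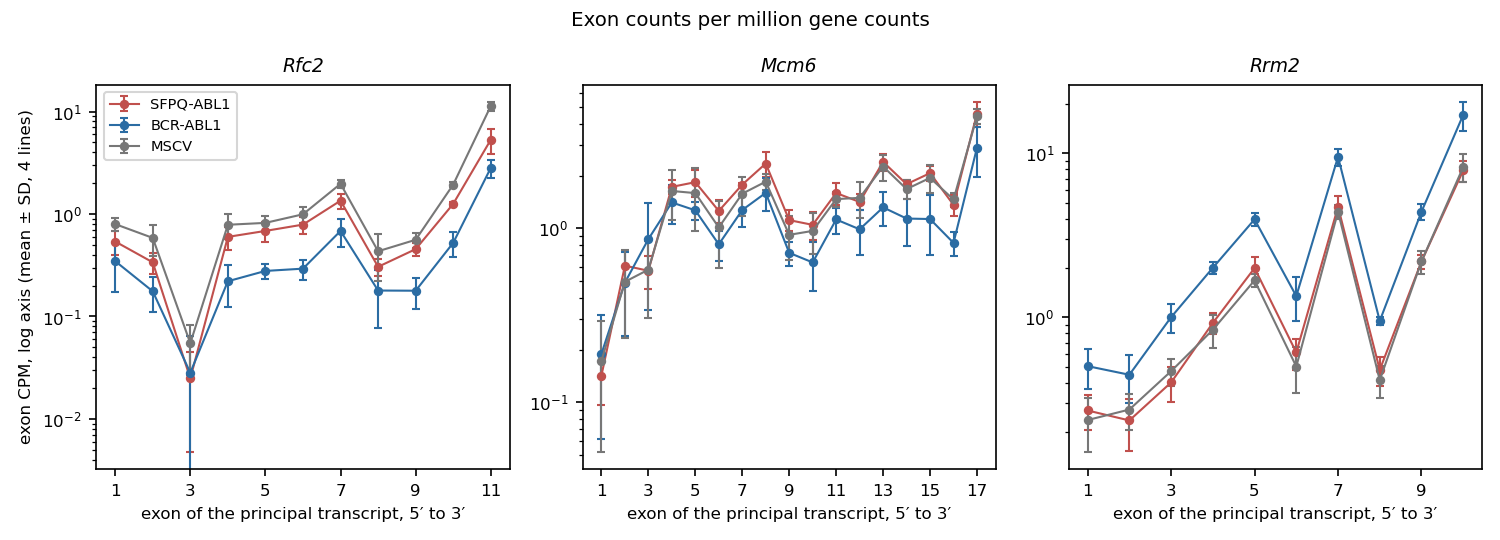
Exon CPM (scaled by gene counts) along Rfc2, Mcm6 and Rrm2 (log axis), as mean ± SD of 4 lines per group; a bar of Rfc2 exon 3 in BCR-ABL1 runs below the axis. BCR-ABL1 lies lowest in 10 of the 11 Rfc2 exons and highest in all 10 Rrm2 exons, while the first 3 Mcm6 exons have BCR-ABL1 to MSCV ratios of 1.10, 0.989 and 1.5.

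Pola1, the catalytic subunit of polymerase alpha, was the called polymerase gene against MSCV. It had 103, 143, 108 and 113 CPM in SFPQ-ABL1 lines, 119, 117, 136 and 119.8 CPM in BCR-ABL1 lines and 90.6, 67.7, 87.3 and 101 CPM in MSCV lines. Every fusion line lay above every MSCV line, by a narrow margin for SFPQ-ABL1. The log2 fold change was 0.50 ± 0.13 (adjusted p = 0.00964 in edgeR) for BCR-ABL1 against MSCV and 0.43 ± 0.13 (adjusted p = 0.105 in edgeR) for SFPQ-ABL1 against MSCV. The first of these had adjusted p = 0.0548 in the exon table. Its partners in the same complex were not called: for BCR-ABL1 against MSCV the log2 fold change was -0.14 for Pola2, 0.01 for Prim1 and -0.03 for Prim2, and the difference from Pola1 was not tested.

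Pold1, the catalytic subunit of polymerase delta, had 97.7, 117, 94.0 and 89.1 CPM in SFPQ-ABL1 lines, 82.5, 58.3, 89.0 and 62.8 CPM in BCR-ABL1 lines and 81.1, 84.2, 84.1 and 85.0 CPM in MSCV lines. SFPQ-ABL1 lines lay above all others by a narrow margin, and the log2 fold change against BCR-ABL1 was 0.44 ± 0.13 (adjusted p = 0.0243 in edgeR). It lost that call without SFPQ-ABL1 line 2, BCR-ABL1 line 2 or BCR-ABL1 line 4. Pole2, a subunit of polymerase epsilon, was higher with SFPQ-ABL1 than with BCR-ABL1 by 0.41 ± 0.13 (adjusted p = 0.0368 in edgeR), a call that 8 of 21 alternatives lost. Pole, the catalytic subunit, averaged 92.1 ± 6.14 CPM in SFPQ-ABL1, 84.8 ± 10.4 CPM in BCR-ABL1 and 71.6 ± 8.63 CPM in MSCV lines (SD, n = 4 each) and was not called.

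Rrm2, the small subunit of ribonucleotide reductase, was the member that rose most with BCR-ABL1. It had 138, 167, 156 and 129 CPM in SFPQ-ABL1 lines, 280.0, 348, 313 and 248 CPM in BCR-ABL1 lines and 132, 162, 124 and 133 CPM in MSCV lines. Every BCR-ABL1 line was above all other lines, and SFPQ-ABL1 and MSCV lines overlapped. BCR-ABL1 lines held 2.16-fold more than MSCV lines (log2 fold change 1.11 ± 0.12, adjusted p = 5.45e-05 in edgeR), and SFPQ-ABL1 lines held 2.02-fold less than BCR-ABL1 lines (-1.01 ± 0.12, adjusted p = 2.08e-04 in edgeR). Both calls held in all 21 alternatives. In all 10 exons the mean of BCR-ABL1 lines was above that of MSCV lines, at ratios of 1.63 to 2.69. The lines did not overlap in 9 of the 10. In exon 2 they overlapped, at low means of 0.446 CPM with BCR-ABL1 and 0.274 CPM in MSCV. Per length, Rrm2 was the most abundant member in BCR-ABL1 lines, at 107 ± 15.5 CPM per kb, against 53.2 ± 6.12 in SFPQ-ABL1 and 49.7 ± 5.90 in MSCV lines (SD, n = 4 each). Rrm1, the large subunit of the same enzyme, was not called: it averaged 386 ± 46.2 CPM in SFPQ-ABL1, 355 ± 31.3 CPM in BCR-ABL1 and 340.2 ± 7.07 CPM in MSCV lines (SD, n = 4 each).

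Tyms, thymidylate synthase, went the other way between the fusions. It had 92.9, 105, 101 and 88.8 CPM in SFPQ-ABL1 lines, 66.1, 54.5, 69.8 and 62.5 CPM in BCR-ABL1 lines and 78.9, 86.5, 58.8 and 71.6 CPM in MSCV lines. SFPQ-ABL1 lines lay above all others, and BCR-ABL1 and MSCV lines overlapped. The log2 fold change was 0.62 ± 0.12 (adjusted p = 0.0025 in edgeR) for SFPQ-ABL1 against BCR-ABL1 and 0.39 ± 0.12 (adjusted p = 0.105 in edgeR) for SFPQ-ABL1 against MSCV. Tk1, thymidine kinase, had the largest SE of the members (0.23 on the log2 scale for BCR-ABL1 against MSCV). It ran from 67.0 to 118 CPM in SFPQ-ABL1, 49.3 to 99.3 CPM in BCR-ABL1 and 62.7 to 98.1 CPM in MSCV lines and was not called.

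**Figure D4:**
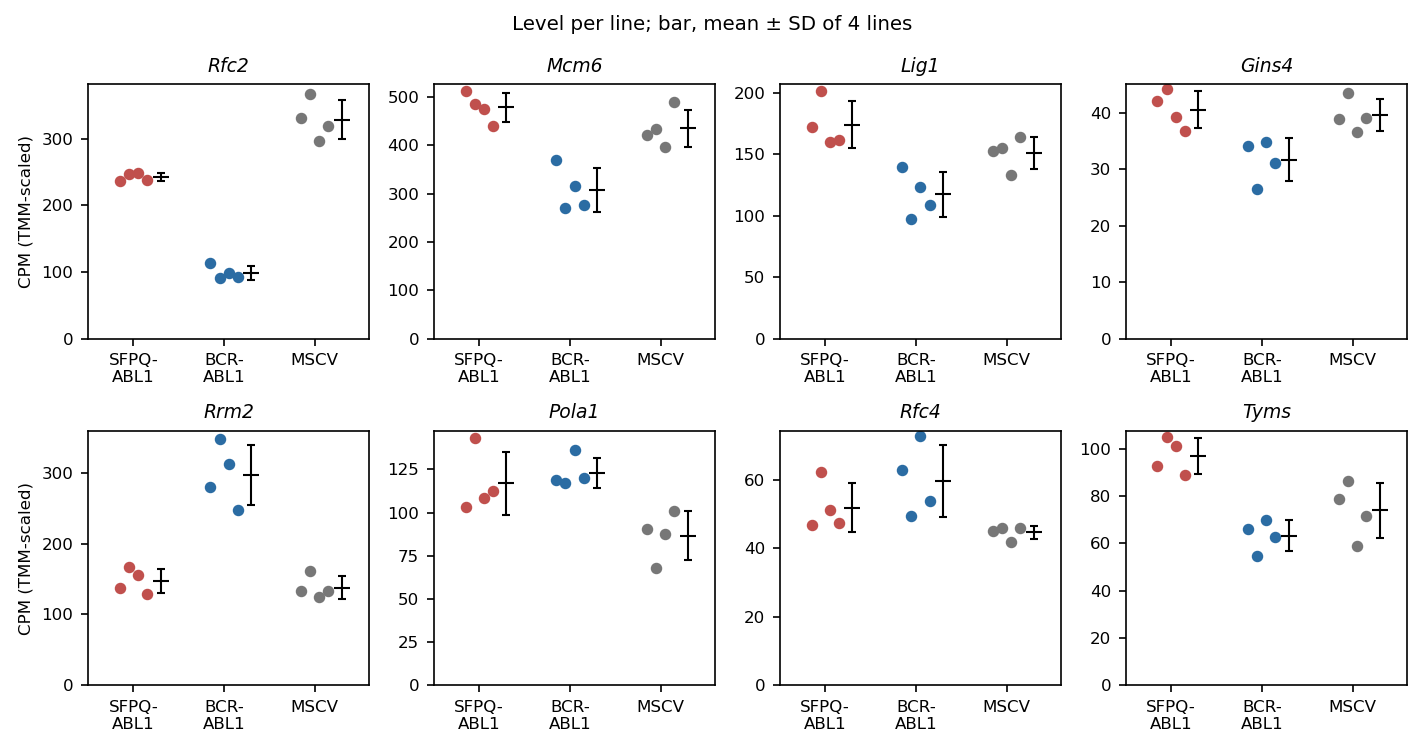
CPM per line of the 7 members called between BCR-ABL1 and MSCV, and of Tyms, with the mean ± SD of 4 lines. BCR-ABL1 lines separate from both other groups for Rfc2, Mcm6, Gins4 and Rrm2, and every fusion line is above every MSCV line for Pola1 and Rfc4.

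Lig1, the ligase that joins Okazaki fragments, had 172, 202, 160.0 and 162 CPM in SFPQ-ABL1 lines, 140.0, 97.5, 123 and 109 CPM in BCR-ABL1 lines and 152, 155, 133 and 164 CPM in MSCV lines. SFPQ-ABL1 lines lay above BCR-ABL1 lines, and BCR-ABL1 line 1 reached into the MSCV range. The log2 fold change was 0.57 ± 0.12 (adjusted p = 0.00416 in edgeR) for SFPQ-ABL1 against BCR-ABL1, held in all 21 alternatives. It was -0.36 ± 0.12 (adjusted p = 0.0328 in edgeR) for BCR-ABL1 against MSCV, lost in 8 of 21 with adjusted p up to 0.0888. Fen1, the nuclease that trims the fragments, had 18.5, 19.2, 15.9 and 15.7 CPM in SFPQ-ABL1 lines, 14.5, 8.79, 13.3 and 11.5 CPM in BCR-ABL1 lines and 13.0, 11.7, 12.8 and 14.7 CPM in MSCV lines. All SFPQ-ABL1 lines of Fen1 were above all other lines, with a log2 fold change of 0.53 ± 0.15 (adjusted p = 0.0186 in edgeR) against BCR-ABL1. Fen1 shares 130 exonic bases with Tmem258, which was also higher with SFPQ-ABL1 than with BCR-ABL1 (log2 fold change 0.30, adjusted p = 0.0143 in edgeR). Fen1 shares more, 1909 of its 2422 exonic bases, with Gm10143, an antisense gene on the opposite strand. Gm10143 averaged 0.783 CPM over all lines, against 14.1 CPM for Fen1. It was not called between the fusions (adjusted p = 0.184 in edgeR). The part of either gene in the Fen1 counts was not tested.

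Rpa1 and Rpa2 encode subunits of the single-strand binding protein RPA. Rpa2 was higher with SFPQ-ABL1 than with BCR-ABL1 by 0.54 ± 0.19 (adjusted p = 0.0494 in edgeR), the weakest call of the 14, lost in 12 of 21 alternatives. Rpa1 was not called, at 223 ± 38.5 CPM in SFPQ-ABL1, 196 ± 32.8 CPM in BCR-ABL1 and 207 ± 23.1 CPM in MSCV lines (SD, n = 4 each). Of the chromatin genes, Chaf1a, the large subunit of the histone chaperone CAF-1, was higher with SFPQ-ABL1 than with BCR-ABL1 by 0.29 ± 0.09 (adjusted p = 0.0284 in edgeR), lost in 7 of 21. Chaf1a shares 4648 exonic bases with Ubxn6, which averaged 12.1 CPM over all lines, against 77.8 CPM for Chaf1a. Ubxn6 was not called between the fusions (adjusted p = 0.982 in edgeR), and its part in the Chaf1a counts was not tested. Chaf1b, another CAF-1 subunit, had the highest adjusted p for BCR-ABL1 against MSCV (0.978 in edgeR). It had 58.8, 59.6, 53.3 and 47.4 CPM in SFPQ-ABL1 lines, 60.6, 38.3, 50.4 and 37.2 CPM in BCR-ABL1 lines and 52.7, 52.2, 39.8 and 42.8 CPM in MSCV lines, with all groups overlapping. Uhrf1, which carries DNA methylation through replication, was not called, at 186 ± 24.7 CPM in SFPQ-ABL1, 175 ± 32.6 CPM in BCR-ABL1 and 149 ± 13.0 CPM in MSCV lines (SD, n = 4 each).

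A further 72 genes of replication and its control, none of them members, were read from the same fits. With BCR-ABL1, 26 were higher and 4 lower than in MSCV (15.8% and 16.3% of all genes), with a median log2 fold change of 0.19. The higher genes included Orc2, an origin recognition subunit, at 75.7 ± 4.03 CPM in BCR-ABL1 and 39.3 ± 4.87 CPM in MSCV lines (SD, n = 4 each; adjusted p = 5.5e-05 in edgeR). Recql4, a helicase needed to start replication, averaged 56.5 ± 13.0 CPM in BCR-ABL1 and 25.3 ± 4.98 CPM in MSCV lines. Hells, a chromatin remodeller, averaged 130.5 ± 6.18 CPM in BCR-ABL1 and 69.8 ± 7.5 CPM in MSCV lines. E2f4 (log2 fold change 0.63), E2f3 (0.50) and Orc4 (0.42) complete the 6 called genes with the smallest adjusted p. By role, 7 of 17 origin, firing and fork factors and 5 of 9 nucleotide supply genes were higher and 0 lower. In the E2F and RB family 7 of 13 were higher and 2 lower (Rbl2 and E2f8). Among polymerase, clamp loader and Okazaki fragment factors 2 of 18 were higher and 2 lower. Of S phase cyclins and kinases 3 of 5 were higher, and of chromatin and maintenance genes 2 of 10, with 0 lower in both.

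With SFPQ-ABL1, 3 of the 72 were higher than in MSCV and 0 lower (0.814% and 0.977% of all genes). These were Dck, a nucleoside kinase (log2 fold change 0.51), Orc2 (0.53) and Cdc7, a kinase that fires origins (0.38), and their adjusted p in edgeR ran from 0.0259 to 0.0351. At an unadjusted p under 0.05 there were 20 (3194 of all 17197 genes), and DESeq2 called 8 higher (528 of 16583 genes). The edgeR count of higher genes was 0 without SFPQ-ABL1 line 1 or 4 or MSCV line 2 or 3. It was 1 without SFPQ-ABL1 line 3 or MSCV line 4. In these fits without 1 line, only 13 to 55 of all 17447 to 17541 genes tested were higher. Between the fusions 6 were higher and 10 lower with SFPQ-ABL1 (13.2% and 12.8% of all genes). Rb1, the retinoblastoma gene, averaged 90.5 ± 18.9 CPM in SFPQ-ABL1 and 172 ± 11.6 CPM in BCR-ABL1 lines (SD, n = 4 each; adjusted p = 0.00136 in edgeR). Recql4 (log2 fold change -0.83), Dbf4 (-0.33) and E2f4 (-0.48) were also lower with SFPQ-ABL1, while Dscc1, a subunit of an alternative clamp loader (0.76), and Timeless, a fork protection factor (0.47), were higher.

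The lines of a group differed together across the members. The mean log2 CPM of the 40 genes was 6.49, 6.65, 6.36 and 6.28 in SFPQ-ABL1 lines 1 to 4, 6.42, 6.03, 6.36 and 6.06 in BCR-ABL1 lines and 6.31, 6.31, 6.11 and 6.26 in MSCV lines. SFPQ-ABL1 line 2 was the highest of its group in 32 of 40 members, where it was so in 27.7% of all genes tested. BCR-ABL1 line 2 was the lowest of its group in 28 members (26.8% of all genes) and MSCV line 3 in 33 (21.7% of all genes). Fewer cells in S phase and less RNA of these genes per cell cannot be told apart in bulk RNA.

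**Figure D5:**
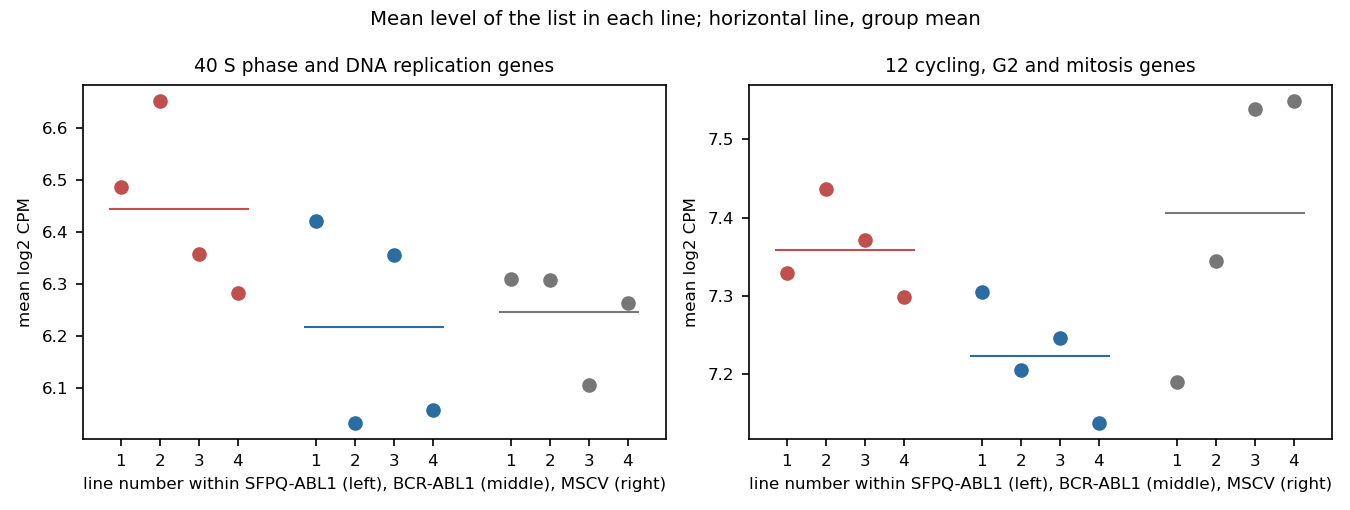
Mean log2 CPM per line of the 40 replication genes (left) and of 12 cycling, G2 and mitosis genes (right), with the group mean as a line; the axes do not start at 0. SFPQ-ABL1 line 2 is highest at 6.65 on the left, and BCR-ABL1 lines 2 and 4 are lowest at 6.03 and 6.06.

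Genes of the later cell cycle were read alongside. Of 12 cycling, G2 and mitosis genes, 4 were lower with BCR-ABL1 than in MSCV (Ccnb2, Cdc20, Birc5 and Plk1) and 0 higher, where 16.3% of all genes were lower and 15.8% higher. Between the fusions 3 were higher with SFPQ-ABL1 than with BCR-ABL1 (Cdc20, Plk1 and Ccnb2) and 0 lower, where 13.2% of all genes were higher. Of 7 quiescence-associated genes, 2 were higher with BCR-ABL1 than in MSCV (Cdkn1a and Btg1) and 3 lower (Cdkn1b, Cdkn2c and Rbl2). Cdkn1a, which encodes the cell cycle inhibitor p21, averaged 191 ± 58.8 CPM in SFPQ-ABL1, 511 ± 94.4 CPM in BCR-ABL1 and 218 ± 57.4 CPM in MSCV lines (SD, n = 4 each; adjusted p = 0.00147 in edgeR for BCR-ABL1 against MSCV). The log2 fold change of BCR-ABL1 against MSCV was -0.62 for Cdkn1b, -0.74 for Cdkn2c, -0.46 for Rbl2 and 0.87 for Btg1. The part of these genes in the results above was not tested.

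Gene counts per library ran from 59355018 to 80616227. The members took 0.367% to 0.582% of the counts of a line. Of the early B lineage markers, Cd79a and Cd79b were expressed while Pax5, Ebf1, Rag1, Il7r and Dntt were at or near 0 in every group. Cd79a averaged 58.1 ± 7.18 CPM in SFPQ-ABL1, 42.5 ± 7.05 CPM in BCR-ABL1 and 93.4 ± 4.05 CPM in MSCV lines (SD, n = 4 each) and was called lower with each fusion than in MSCV. Markers of other blood cells also moved with the groups. With BCR-ABL1 against MSCV, Cd79b (log2 fold change -1.27), Il3ra (-0.94), Ms4a3 (-1.36), Lyz2 (-1.11) and Klf1 (-1.40) were lower. The mast cell markers split. Cpa3 was higher there, at 13.0 ± 19.5 CPM in BCR-ABL1 and 0.209 ± 0.165 CPM in MSCV lines (SD, n = 4 each). Its highest BCR-ABL1 line had 42.2 CPM. Ms4a2 was lower, at 6.43 ± 1.20 CPM in BCR-ABL1 and 12.5 ± 1.07 CPM in MSCV lines, with no overlap (adjusted p = 5.96e-04 in edgeR). Mcpt8 and Fcer1a were under the filter on low counts. With SFPQ-ABL1 against MSCV, Il3ra (-0.57) was lower. Mpo (2.04) was called higher there, with overlapping lines (adjusted p = 0.0488 in edgeR). Elane (1.04), of the same granulocyte and monocyte list, also had a positive log2 fold change. Lyz2 (-0.46), Ms4a3 (-0.39) and Csf1r (-0.90) had negative ones. These other genes of the list were not called. The T and NK markers were all under the filter on low counts, and the part of any marker in the members' results was not tested. The spans of 17 members overlap another tested gene, and 13 share exonic bases with one.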

How the data were processed

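RNA of 12 Ba/F3 lines was sequenced, 4 lines in each of 3 groups. Per the submitters' processing notes, the tools were Subread and featureCounts and the build was mm10; versions, annotation and strand setting were not given in the sources used here. Unnormalized counts for Ensembl genes and exons are what the authors deposited. Symbols, coordinates and exon order came from GENCODE M21 on mm10, which held 55230 of the 55471 gene identifiers. The exon counts came to 16.7% to 19.7% of the gene counts, so they hold a subset of the reads.

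In R 4.3.3, genes were filtered with filterByExpr in edgeR 4.0.16, which left 17197, and scaled by TMM. The two-sided quasi-likelihood test used all 12 libraries and a group term alone, with p-values adjusted by Benjamini-Hochberg over all genes tested and a threshold of 0.05. The test was first run on simulated data. CPM are TMM-scaled; exon CPM are scaled by the gene totals. SE is that of the log2 fold change. Replicate pairs differed by more than sampling noise (chi-square per degree of freedom 33.1 to 182). Counts are PCR reads without molecular identifiers.

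The members and lists were chosen with earlier results of these data known. Values per line are given for up to 10 called members per comparison with the smallest adjusted p, the member with the highest adjusted p in each comparison, the MCM2-7 genes and Pcna; of the 72 other genes, up to 6 called ones per comparison are named, and Rbl2 and E2f8 were named after their values were seen. The 21 alternatives per comparison were other scaling, no filter, DESeq2 1.42.0, limma-voom (limma 3.58.1), the 8 libraries compared, the replicate number as a block, the exon table, and leaving out lines (12 singly and 1 pair). In the promoter search, counting all windows was the plan; the count with 1 window per gene was an addition. A withheld item is not reported here.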

Additional observations from a re-analysis of the deposited data

Results flagged for a closer look

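Among 120 sets of 4 lines (40 members in 3 groups), 4 held a line far from the other lines of its group by Dixon's ratio; chance gives about 1 set in 20. SFPQ-ABL1 line 2 had 63.9 CPM of Cdt1, where the other lines had 54.1 to 55.0 CPM, and 280 CPM of Rpa1, where the others had 199.7 to 213 CPM. BCR-ABL1 line 3 had 136 CPM of Pola1, where the others had 117 to 119.8 CPM. MSCV line 2 had 58.8 CPM of Pole, where the others had 74.8 to 77.4 CPM.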

How the results depend on the processing

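Over 21 alternatives per comparison, called members kept direction and side of the threshold in 398 of their results and lost the call in 85, with 0 reversed; uncalled members crossed it in 12. Rfc2, Rrm2 and Mcm6 kept their calls for BCR-ABL1 against MSCV in all 21, and Rfc2, Rrm2, Mcm6, Tyms, Lig1 and Mcm4 did so for SFPQ-ABL1 against BCR-ABL1. For BCR-ABL1 against MSCV, lower members numbered 2 without SFPQ-ABL1 line 2 and BCR-ABL1 line 4 together; leaving out 1 line at a time gave 2 to 5 higher and 2 to 6 lower. For SFPQ-ABL1 against MSCV, DESeq2 called 4 members higher, lower members numbered 0 with library sizes alone and 0 with the 8 libraries compared, and leaving out 1 line gave 0 to 1. For SFPQ-ABL1 against BCR-ABL1, higher members numbered 5 without both named lines and 7 to 14 without 1 line. Of the 72 other genes, higher calls for SFPQ-ABL1 against MSCV numbered 5 with library sizes alone, 8 with DESeq2, 1 with 8 libraries, 0 in the exon table and 0 to 4 without 1 line. For SFPQ-ABL1 against BCR-ABL1 they numbered 10 higher with library sizes alone and 3 lower in the exon table, and 5 to 10 higher and 6 to 12 lower without 1 line. The causes were not tested.

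Over all genes, SFPQ-ABL1 against MSCV gave 140 higher and 168 lower, but 528 and 570 with DESeq2, 46 and 64 with 8 libraries, 74 and 83 in the exon table, 323 and 403 with the replicate block, and as few as 13 and 20 without MSCV line 3; library sizes alone gave 210 and 114. SFPQ-ABL1 against BCR-ABL1 gave 2268 higher and 2203 lower, and 2841 and 1750 with library sizes alone. The exon table gave 1352 and 1266. Leaving out 1 line at a time gave 1568 to 2560 higher and 1585 to 2466 lower there. For BCR-ABL1 against MSCV it gave 2235 to 2741 higher and 2239 to 2904 lower. For SFPQ-ABL1 against MSCV it gave 13 to 227 higher and 20 to 240 lower. The labels do not say that lines with a number share a batch or day. Deviations from the group means were correlated above 0.1 in 7 of 12 same-number pairs (range -0.0063 to 0.385) and in 6 of 36 other pairs; the best partner had the same number in 12 of 24 searches (each line in each other group), and in both other groups for 3 of 12 lines. Since not every pair passed 0.1, the lines were not treated as paired, and any sharing is a hint from the data, not the design. With the numbers as a replicate block, calls over all genes rose to 3166 higher and 3141 lower for BCR-ABL1 against MSCV and 2647 and 2689 for SFPQ-ABL1 against BCR-ABL1. Member counts were as in the fit without it (3 and 4, 0 and 1, 14 and 1 higher and lower), and 6 of the 72 other genes were higher for SFPQ-ABL1 against MSCV.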
